A study of Rattus norvegicus with 12 samples.

Results

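Articular cartilage was examined for genes whose level in its intermediate/deep zone (IDZ) lay outside the range of both comparison zones, namely the overlying superficial zone (SZ) and, in the nearby growth plate, the resting zone (RZ). A gene was called an IDZ peak when all 4 IDZ arrays lay above every one of the 8 SZ and RZ arrays, and an IDZ trough when all 4 lay below every one of them. By this rule 281 peaks and 518 troughs, 799 genes in all, were found among 14300 measured genes. The rule itself used the measured IDZ levels, so the differences of IDZ from the other zones are given below as descriptions, without a test.

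The samples came from 8 untreated Sprague-Dawley rats, 10 days of age, with no genetic alteration given in the labels. Zones of the proximal tibial epiphysis were cut by hand from eosin-stained frozen sections, and total RNA of each zone was hybridized to 4 one-color GeneChip arrays (Rat Gene 1.0 ST), 12 arrays in all. Each SZ sample held both tibias of 1 animal (animals 5 to 8), whereas each IDZ and each RZ sample was a pool of 2 animals. A given animal pair supplied an IDZ and an RZ pool of equal number, and animals 5 to 8 supplied all 3 zones. Values are normalized log2 expression, on which a difference of 1 is a 2-fold difference, and they are compared between arrays for a gene and not between genes.

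Postnatal articular cartilage and the epiphyseal growth plate are layered tissues of chondrocytes embedded in a collagen II and aggrecan matrix. SZ chondrocytes secrete the lubricant proteoglycan 4 and face the joint cavity, IDZ chondrocytes lie beneath them, and RZ holds slowly dividing chondrocytes that feed the proliferative columns of the growth plate. Chondrocyte proliferation and maturation are controlled by bone morphogenetic proteins (BMPs), Wnts, fibroblast growth factors and growth hormone, and secreted antagonists limit where BMPs and Wnts act.

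The zone labels were checked against marker genes. Prg4, which encodes the SZ lubricant, measured 12.53, 12.90, 12.97 and 12.72 in SZ, 10.61, 10.80, 10.95 and 8.86 in IDZ and 5.24, 6.40, 5.57 and 5.53 in RZ. The 3 zones did not overlap, and IDZ 4 was the lowest of the IDZ arrays. Col10a1, the collagen of hypertrophic chondrocytes, measured 6.67 to 7.36 in SZ, 7.54 to 8.10 in IDZ and 7.79 to 8.77 in RZ, with IDZ and RZ overlapping. The 23 measured cartilage matrix genes had array means of 11.14 to 11.46 in SZ, 11.65 to 11.73 in IDZ and 11.59 to 11.79 in RZ. Every SZ array thus lay below every IDZ and RZ array on this list. In bulk tissue, fewer cells of a type and less RNA per cell cannot be told apart.

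SZ 4 stood apart from the other arrays. Its median over all 27342 probe clusters was 6.90, against 6.76 to 6.84 on the other 11 arrays, and its interquartile range was 2.24, against 2.50 to 2.91. With SZ 4 left out, the remaining 11 arrays gave 465 peaks and 1190 troughs. A rule over fewer arrays can only keep or add members, and leaving out any other array gave 291 to 429 peaks and 522 to 768 troughs. Leaving out IDZ 1, with 429 peaks, was the other case in which a count grew by over 1.5 times. SZ 4 lay on the side of the other SZ arrays for 43.5% of the 1190 troughs and 60.4% of the 465 peaks that the other 11 arrays gave, whereas for every other array these shares were 67.4 to 99.2% and 65.5 to 96.6%. Among all genes, a left-out SZ or RZ array lay on the peak side for 23.8 to 39.6% and a left-out IDZ array for 7.78 to 10.5%. On the trough side these shares were 29.8 to 38.6% and 8.63 to 11.6%. For SZ 4 itself they were 36.7% on the peak side and 38.5% on the trough side. The 43.5% of troughs on SZ 4 was thus little above its share among all genes. The genes described below meet the rule with all 12 arrays.

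Peaks made up 1.97% and troughs 3.62% of all measured genes. The median size of the difference between the IDZ mean and the mean of the SZ and RZ means was 0.41 among the peaks (1.33-fold, range 0.13 to 2.07) and 0.53 among the troughs (1.45-fold, range 0.14 to 2.06). This difference reached 1 in 32 peaks and 36 troughs. Only 12 peaks and 13 troughs differed by at least 2-fold from the SZ mean and also from the RZ mean. The same rule applied to the outer zones gave 1532 peaks and 1044 troughs for SZ and 809 peaks and 524 troughs for RZ. A further 314 genes fell in steps from SZ through IDZ to RZ and 272 rose in steps, with no overlap between neighboring zones. Genes that stood apart in IDZ were therefore fewer than those that stood apart in SZ, in either direction.

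**Figure D1:**
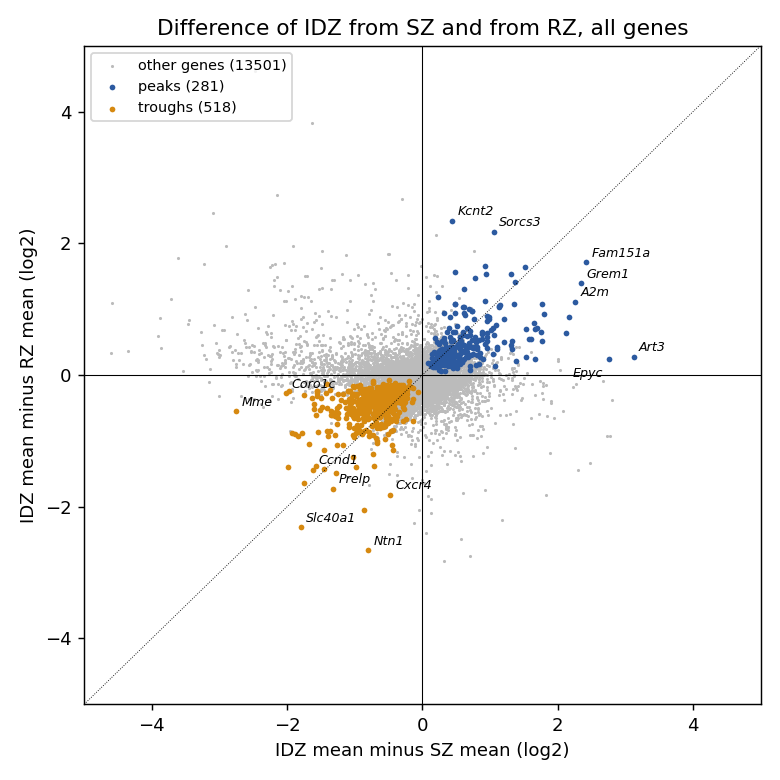
Difference of the IDZ mean from the SZ mean (horizontal axis, log2) against its difference from the RZ mean (vertical axis, log2) for 14300 genes, with 281 peaks in blue, 518 troughs in orange and the other 13501 genes in gray; the dotted line marks equal differences. Peaks lie in the upper right and troughs in the lower left by the rule, and most of both lie nearer to the horizontal axis than to the vertical axis, since IDZ was closer to RZ than to SZ.

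The IDZ mean was closer to the RZ mean than to the SZ mean for 191 of 281 peaks (68.0%) and 417 of 518 troughs (80.5%), beside 60.3% of all genes. The comparison whose direction the rule does not fix is that of SZ with RZ, which lie on the same side of IDZ in every member. It was tested with limma over all clusters, with Benjamini-Hochberg adjustment. The rule used the SZ and RZ values and favors genes with tight replicates, so this test is not independent of it. RZ was higher than SZ in 62 peaks (22.1%, beside 12.2% of all genes) and SZ was higher than RZ in 19 peaks (6.76%, beside 14.5% of all genes). Among the troughs the split ran the other way: SZ was higher in 171 (33.0%) and RZ in 17 (3.28%). Among all genes these shares were 14.5% and 12.2%. With SZ and RZ on one side of IDZ, IDZ is closer to RZ whenever RZ exceeds SZ in a peak. In a trough the same holds whenever SZ exceeds RZ. The opposite splits thus restate the closeness of IDZ to RZ and are not a separate result. In 200 peaks and 330 troughs the difference of SZ from RZ did not pass an adjusted p of 0.05. With the animal pair as a fixed block the troughs higher in SZ fell to 103 and those higher in RZ to 8. In the 11-array set without SZ 4, 324 of 1190 troughs were higher in SZ.

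The lists with the largest shares of troughs were those of the cell cycle. Of the 30 measured genes of a DNA replication list, 10 (33.3%) were troughs and none was a peak. Of the 35 measured genes of a mitosis list, 13 (37.1%) were troughs and none was a peak. Among all genes, 3.62% were troughs and 1.97% peaks. The median difference of IDZ from the mean of the other zones was -0.44 over the replication list and -0.69 over the mitosis list, beside 0.01 over all genes. At an adjusted p under 0.05, 17 of 30 replication genes and 29 of 35 mitosis genes were lower in IDZ than in RZ, beside 5.58% of all genes. Against SZ, 14 replication and 20 mitosis genes were lower in IDZ, beside 17% of all genes. These counts rest on the contrasts that chose the members and are given as a description. SZ and RZ themselves differed in 4 replication genes, with SZ higher in 1 and RZ higher in 3, and in 1 mitosis gene, with RZ higher. Among all genes, SZ was higher in 14.5% and RZ in 12.2%.

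The cell cycle troughs Mcm5, Mcm6 and Top2a are shown with the sequence upstream of their start, because promoters of genes that rise and fall with the cell cycle often carry CCAAT boxes and sites of the E2F type. Mcm5 and Mcm6 encode subunits of the helicase that unwinds DNA at replication origins, and Top2a encodes the topoisomerase that untangles chromosomes before they separate. The stretches are the 250 bases before the annotated start in RefSeq (assembly GRCr8), 5′ to 3′ on the gene's strand, at chr19:13488563-13488812 (plus strand), chr13:42404353-42404602 (minus strand) and chr10:84473094-84473343 (minus strand). Capitals mark 5 motifs found on either strand. These were the CCAAT box, read as ATTGG where it lies on the other strand, the GC box GGGCGG, the cyclic AMP response element TGACGTCA, and the E2F-type motifs TTTGGCGC and TTTCCCGC, the former read as GCGCCAAA on the other strand.
Mcm5: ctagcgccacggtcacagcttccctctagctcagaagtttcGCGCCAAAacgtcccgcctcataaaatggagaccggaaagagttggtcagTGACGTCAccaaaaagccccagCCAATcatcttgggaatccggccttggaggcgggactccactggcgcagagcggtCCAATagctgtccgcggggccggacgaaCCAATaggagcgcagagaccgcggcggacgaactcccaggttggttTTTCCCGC
Mcm6: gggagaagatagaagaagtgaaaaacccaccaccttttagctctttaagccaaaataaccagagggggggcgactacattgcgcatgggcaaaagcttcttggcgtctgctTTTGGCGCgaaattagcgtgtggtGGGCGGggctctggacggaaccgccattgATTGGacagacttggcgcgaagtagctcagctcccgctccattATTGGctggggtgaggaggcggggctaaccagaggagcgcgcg
Top2a: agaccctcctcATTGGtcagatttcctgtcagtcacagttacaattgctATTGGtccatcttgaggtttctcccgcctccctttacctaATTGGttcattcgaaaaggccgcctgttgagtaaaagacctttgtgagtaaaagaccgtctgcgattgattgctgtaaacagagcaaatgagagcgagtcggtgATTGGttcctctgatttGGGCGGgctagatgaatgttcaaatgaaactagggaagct
The Mcm5 stretch held 3 CCAAT boxes, a TGACGTCA and both E2F-type motifs. That of Mcm6 held 2 CCAAT boxes, a TTTGGCGC and a GGGCGG, and that of Top2a held 4 CCAAT boxes and a GGGCGG with no E2F-type motif of these spellings.

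Over windows from 250 bases before to 50 bases after the start, CCAAT was found in 14 of the 19 replication and mitosis troughs with a promoter in the table (73.7%), beside 37.7% of all 27457 promoters and 38.3% of the promoters of measured genes. The share in the whole pair of lists, troughs or not, was 39 of 57 (68.4%). TTTGGCGC was found in 4 of 19 (21.1%), beside 0.521% of all promoters and 0.737% of those of measured genes. TTTCCCGC was found in 2 of 19 (10.5%), beside 1.03% and 1.56%. In the whole pair of lists these were 7 of 57 (12.3%) and 4 of 57 (7.02%). Among all 426 troughs with a promoter, GGGCGG was found in 69.2% and CCAAT in 41.3%. Among 228 peaks with a promoter these shares were 49.6% and 35.5%, near the 50.1% and 38.3% of the promoters of measured genes. Of the troughs, 97.3% were genes whose highest zone mean reached the median of all values, against 78.3% of the peaks. Motif shares were not computed for such genes alone, so the part of expression level in the GGGCGG share was not tested. TATAAA was found in 8.45% of troughs, 9.21% of peaks and 11.8% of measured genes, ACAATG in 8.45, 9.21 and 9.73%, and TGACGTCA in 3.99, 2.63 and 2.45%. A match describes letters in a window and does not show that a factor binds there.

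The replication troughs covered the origin helicase, the clamp, and the supply of deoxynucleotides. Pcna, the sliding clamp that holds DNA polymerases on their template, measured 9.84, 9.90, 9.83 and 9.16 in SZ, 8.62, 8.45, 8.44 and 8.53 in IDZ and 9.56, 9.66, 9.37 and 9.69 in RZ. All 4 IDZ arrays lay below 8.7 and every other array above 9.1, with SZ 4 the closest. The IDZ mean was 1.11 ± 0.12 (SE, n = 4 arrays per zone) below the mean of the other zones, a 2.17-fold difference. Rrm2, the regulated subunit of ribonucleotide reductase, measured 9.30, 9.65, 9.43 and 8.74 in SZ, 8.19, 8.22, 8.28 and 8.35 in IDZ and 9.47, 9.67, 9.44 and 9.45 in RZ. SZ 4 was again the lowest SZ array, and the difference was 1.13 ± 0.13. Tyms, which makes thymidylate, measured 8.61, 8.46, 8.42 and 8.10 in SZ, 7.39, 7.40, 7.37 and 7.42 in IDZ and 7.96, 8.14, 7.86 and 8.04 in RZ. It was the replication trough in which SZ was higher than RZ, by 0.40 ± 0.11 (adjusted p = 0.014). Mcm6 measured 8.51, 8.85, 8.60 and 8.04 in SZ, 7.73, 7.66, 7.56 and 7.88 in IDZ and 8.56, 8.66, 8.48 and 8.61 in RZ, a difference of 0.83 ± 0.12. Mcm5 and Mcm7, of the same helicase, differed by 0.66 and 0.71. The remaining replication troughs were Rpa2 (0.64), which coats single-stranded DNA, Gins1 (0.51) and Cdc45 (0.37), which complete the active helicase, and Chaf1b (0.49), which loads histones on new DNA.

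The mitosis troughs ranged from entry into mitosis to cell division. Pttg1, securin, which keeps sister chromatids joined, measured 8.30, 8.81, 8.44 and 7.82 in SZ, 7.23, 7.66, 7.21 and 7.36 in IDZ and 8.71, 8.99, 8.55 and 8.76 in RZ. IDZ lay below both other zones by a difference of 1.19 ± 0.15, with SZ 4 nearest. Bub1, a spindle checkpoint kinase, measured 8.03, 8.20, 8.24 and 7.12 in SZ, 6.88, 6.62, 7.11 and 7.05 in IDZ and 7.79, 7.96, 7.57 and 7.88 in RZ. Its gap was the narrowest of these: SZ 4, at 7.12, lay next to IDZ 3, at 7.11. Ccna2, cyclin A2, measured 8.98, 8.92, 8.87 and 8.56 in SZ, 8.00, 7.83, 7.93 and 7.81 in IDZ and 8.69, 8.64, 8.86 and 8.73 in RZ, with a difference of 0.89 ± 0.089. Top2a, whose upstream sequence is given above, measured 8.60 to 9.55 in SZ, 8.49 to 8.55 in IDZ and 9.19 to 9.39 in RZ, with SZ 4 next to IDZ. The other 9 mitosis troughs were Pbk, Kif4a, Plk1, Tpx2, Prc1, Kif11, Ttk, Ndc80 and Cenpi, with differences of 0.69 to 0.87.

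Ccnd1, cyclin D1, which drives passage through G1 and belongs to neither list, was the trough of this kind with the largest difference. It measured 9.74, 9.68, 9.45 and 9.31 in SZ, 7.80, 7.84, 8.03 and 8.04 in IDZ and 9.46, 9.56, 9.11 and 9.33 in RZ. The IDZ arrays lay below 8.1 and all others above 9.1, and the IDZ mean was 1.53 ± 0.11 lower, 2.88-fold. SZ and RZ differed by 0.18 ± 0.12 (adjusted p = 0.39). Cdkn1a, the CDK inhibitor p21, which restrains the cycle, was a trough as well and measured 8.57 to 9.09 in SZ, 7.99 to 8.15 in IDZ and 8.33 to 8.84 in RZ, a difference of 0.68 ± 0.11. It was picked after its values were seen, from a family of 24 measured CDKs and CDK inhibitors that held 6 troughs and 1 peak. Among all genes, 3.62% were troughs and 1.97% peaks.

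The number of cell cycle troughs depended on SZ 4. Without it, 49 of the 65 genes of both lists were troughs, against 23 with all arrays and 23 to 26 when any other array was left out. The mean of the replication list was 7.26 on SZ 4 and 7.65 to 7.76 on the other SZ arrays, beside 7.19 to 7.23 in IDZ and 7.64 to 7.79 in RZ. The mean of the mitosis list was 7.05 on SZ 4 and 7.49 to 7.88 on the other SZ arrays, beside 6.96 to 7.02 in IDZ and 7.59 to 7.80 in RZ. On both lists SZ 4 thus lay close to IDZ, yet above all 4 IDZ arrays.

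**Figure D2:**
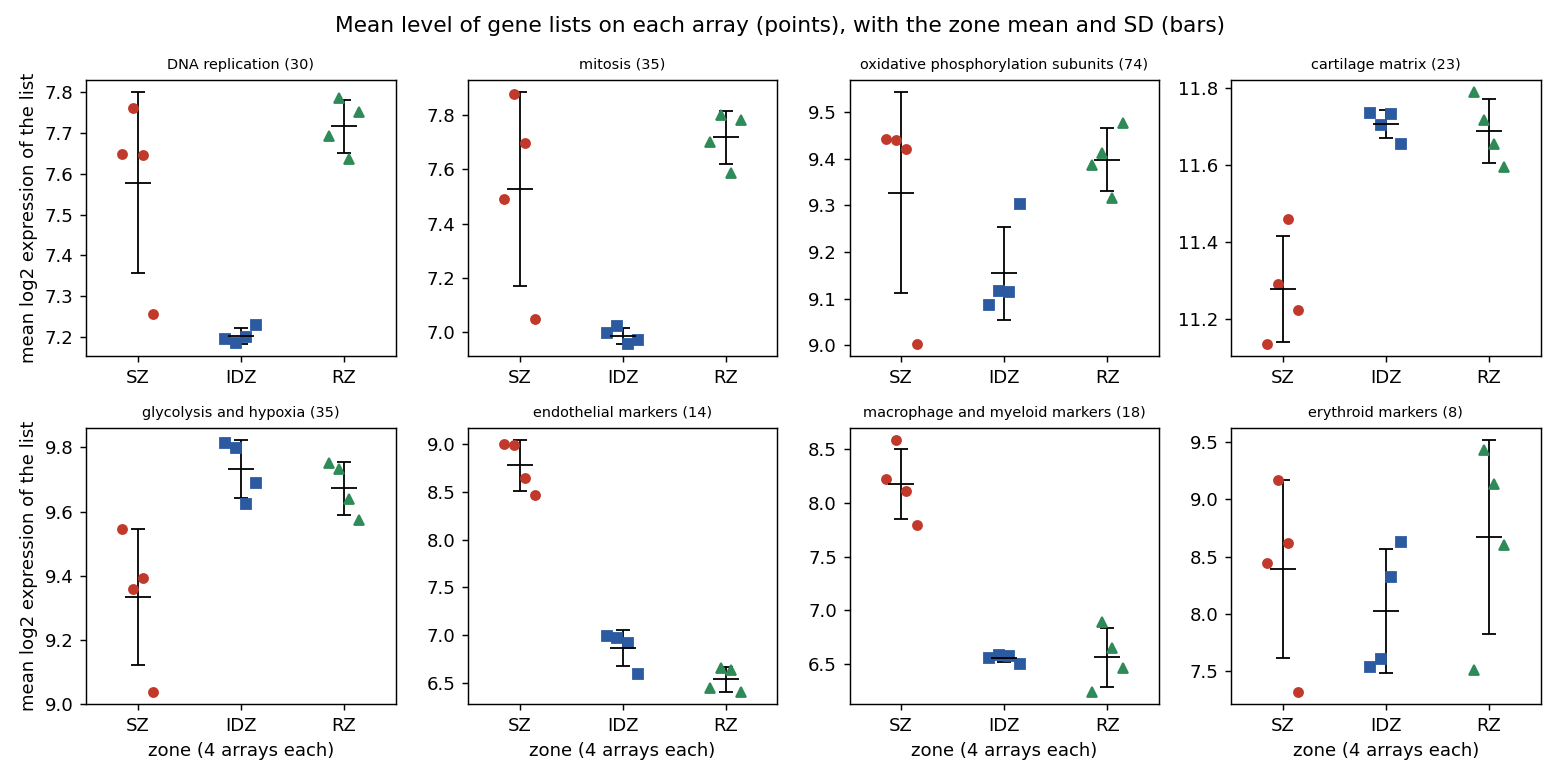
Mean log2 expression over the genes of 8 lists on each array (circles, SZ; squares, IDZ; triangles, RZ; 4 arrays per zone), with the zone mean and SD as black bars and the number of genes in parentheses; the vertical axes differ and do not start at 0. Replication and mitosis lists are low on all 4 IDZ arrays and only slightly higher on SZ 4, whereas endothelial and macrophage markers are high in SZ and similar in IDZ and RZ.

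Subunits of the mitochondrial respiratory chain and ATP synthase formed a second group of troughs. Of 74 measured subunits, 11 (14.9%) were troughs and none was a peak. Of all genes, 3.62% were troughs and 1.97% peaks. Of the genes whose highest zone mean reached the median of all values, 5.67% were troughs, and 72 of the 74 were such genes. The differences of the 11 troughs ran from 0.31 to 0.65. Uqcrb, of complex III, measured 11.63, 11.40, 11.48 and 11.32 in SZ, 10.82, 10.60, 10.81 and 10.92 in IDZ and 11.41, 11.46, 11.43 and 11.40 in RZ, with a difference of 0.65 ± 0.082. Ndufa9, of complex I, measured 9.03, 9.10, 9.01 and 8.62 in SZ, 8.34, 8.13, 8.21 and 8.30 in IDZ and 8.71, 8.88, 8.73 and 8.77 in RZ. Sdhc, of complex II, measured 10.99, 11.04, 10.83 and 10.66 in SZ, 10.04, 9.99, 10.05 and 10.38 in IDZ and 10.56, 10.55, 10.42 and 10.48 in RZ, and IDZ 4 lay 0.04 below the nearest RZ array. ATP synthase gave Atp5f1a, Atp5f1b and Atp5f1d, and complex IV gave Cox5a and Cox6c, so that all 5 complexes were represented. The mitochondrial carriers Slc25a5, which exchanges ADP for ATP, and Slc25a3, which imports phosphate, were troughs too. Slc25a5 measured 11.06, 11.14, 10.85 and 10.75 in SZ, 9.58, 9.34, 9.61 and 9.61 in IDZ and 10.41, 10.48, 10.34 and 10.31 in RZ, a difference of 1.14 ± 0.09, with SZ also above RZ by 0.56 ± 0.10 (adjusted p = 0.0009). The list mean was 9.09 to 9.30 in IDZ, with IDZ 4 highest, 9.32 to 9.48 in RZ, and 9.42 to 9.44 on SZ 1 to 3 but 9.0 on SZ 4. Without SZ 4 the number of troughs in this list was 31, and without IDZ 4 it was 19. 

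Grem1, Sfrp1 and Dkk1, secreted antagonists of BMP or Wnt signals, were among the 15 peaks with the largest differences, and Frzb was a peak of smaller size. Grem1, gremlin 1, which binds BMPs and blocks their receptors, measured 7.71, 7.68, 8.46 and 7.19 in SZ, 9.97, 9.99, 10.22 and 10.24 in IDZ and 8.72, 8.90, 8.65 and 8.56 in RZ. Every IDZ array was above 9.9 and every other array below 9.0. The IDZ mean was 1.87 ± 0.17 above the mean of the other zones, 3.65-fold, and RZ was higher than SZ by 0.95 ± 0.19 (adjusted p = 0.002). Sfrp1, a soluble Wnt-binding protein, measured 7.38, 7.64, 8.29 and 6.95 in SZ, 9.72, 9.75, 9.67 and 9.80 in IDZ and 8.93, 9.12, 8.69 and 8.68 in RZ. IDZ exceeded SZ by 2.17 ± 0.21 and RZ by 0.88 ± 0.21, with SZ 3 the highest SZ array. Frzb, a relative of Sfrp1 first described in cartilage, measured 10.46, 10.35, 11.01 and 10.74 in SZ, 12.27, 12.28, 12.30 and 12.37 in IDZ and 12.20, 12.14, 11.99 and 11.96 in RZ. IDZ and RZ were within 0.5 of each other on every array, IDZ was above all RZ arrays, the difference was 0.95 ± 0.11, and RZ exceeded SZ by 1.43 ± 0.13 (adjusted p = 5.4e-07). Dkk1, which blocks the Wnt co-receptors LRP5 and LRP6, measured 6.91, 5.73, 6.03 and 6.84 in SZ, 7.69, 7.83, 8.22 and 8.83 in IDZ and 6.59, 7.18, 7.34 and 7.14 in RZ. Its IDZ arrays were spread more widely than those of Sfrp1, and the difference was 1.42 ± 0.24.

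Not every antagonist was a peak. Chrdl1, a chordin-like BMP antagonist, was a trough and measured 7.91, 8.05, 8.75 and 8.00 in SZ, 6.26, 6.78, 6.84 and 7.01 in IDZ and 8.36, 7.81, 7.96 and 8.48 in RZ, a difference of 1.44 ± 0.18. SZ and RZ overlapped, and their difference did not pass the test (adjusted p = 0.96). Gdf10, a ligand of the BMP family, was a trough at 8.60 to 9.21 in SZ, 7.43 to 7.67 in IDZ and 8.06 to 8.98 in RZ, with a difference of 1.16 ± 0.15. Notum, an enzyme that inactivates Wnts, measured 7.03 to 7.88 in SZ, 5.99 to 6.44 in IDZ and 6.72 to 7.21 in RZ, a trough with a difference of 0.89 ± 0.14. Wnt5a, a non-canonical ligand of chondrocytes, measured 6.81 to 6.91 in SZ, 6.15 to 6.36 in IDZ and 6.67 to 6.85 in RZ, with a difference of 0.58 ± 0.074. Id4, of the helix-loop-helix inhibitors that respond to BMPs, was a peak at 7.43 to 7.63 in SZ, 7.80 to 7.88 in IDZ and 7.29 to 7.69 in RZ. In all, the 42 measured genes of the BMP and TGF-beta list held 2 peaks and 2 troughs (4.76% each). The 39 of the Wnt list held 3 peaks (7.69%) and 2 troughs (5.13%), beside 1.97% and 3.62% of all genes. The median differences over the lists were -0.13 and -0.17.

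The 32 measured genes of the FGF and IGF list held 2 peaks (6.25%), Ghr and Fgfr2, and no trough. Among all genes, 1.97% were peaks and 3.62% troughs. Ghr, the growth hormone receptor, measured 9.30, 9.44, 9.81 and 9.20 in SZ, 10.07, 9.96, 10.00 and 10.20 in IDZ and 8.98, 8.95, 9.10 and 9.07 in RZ. IDZ exceeded SZ by 0.62 ± 0.12 and RZ by 1.03 ± 0.12. Socs2, the feedback inhibitor that growth hormone induces, a trough outside that list, measured 7.97, 8.37, 8.17 and 7.63 in SZ, 6.38, 6.30, 6.63 and 6.54 in IDZ and 8.02, 7.97, 7.58 and 7.80 in RZ. IDZ lay 1.48 ± 0.13 below the mean of the other zones, 2.78-fold, with no overlap and with SZ 4 and RZ 3 nearest. Fgfr2, a fibroblast growth factor receptor, was a peak at 11.15 to 11.52 in SZ, 11.56 to 11.66 in IDZ and 10.97 to 11.29 in RZ, with a difference of 0.36 ± 0.089. None of the 11 measured hedgehog and PTHrP genes was a peak or a trough. At the shares among all genes few members would fall in so short a list, so finding none says little.

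Several other receptors and ligands were members. Tshr, the receptor of thyroid-stimulating hormone, was a peak at 6.30, 6.22, 6.08 and 6.17 in SZ, 7.38, 7.23, 7.55 and 7.87 in IDZ and 6.21, 5.82, 5.85 and 6.00 in RZ. SZ and RZ overlapped closely and IDZ exceeded their mean by 1.43 ± 0.11, 2.69-fold. Cxcl14, a chemokine, measured 8.64, 8.84, 9.11 and 8.72 in SZ, 10.35, 10.35, 10.25 and 10.46 in IDZ and 8.72, 8.91, 8.57 and 8.66 in RZ. It was among the peaks 2-fold above both zones, by 1.52 ± 0.11 from SZ and 1.64 ± 0.11 from RZ, and the difference of SZ from RZ did not pass the test (adjusted p = 0.59). Angpt1, angiopoietin 1, the ligand of the endothelial receptor Tek, measured 7.03, 7.08, 7.40 and 6.90 in SZ, 8.71, 8.60, 9.0 and 9.29 in IDZ and 8.33, 8.25, 7.55 and 7.75 in RZ, a difference of 1.37 ± 0.16. Cxcr4, the receptor of the chemokine Cxcl12, was a trough at 7.66, 7.73, 7.40 and 7.65 in SZ, 6.94, 7.15, 7.10 and 7.31 in IDZ and 9.14, 8.90, 8.71 and 9.01 in RZ. RZ was higher than SZ by 1.33 ± 0.11 (adjusted p = 4.3e-07), and the IDZ arrays lay below both. Il6st, the receptor subunit shared by cytokines of the interleukin 6 family, was a trough at 9.77 to 10.32 in SZ, 9.26 to 9.44 in IDZ and 9.52 to 9.72 in RZ.

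**Figure D3:**
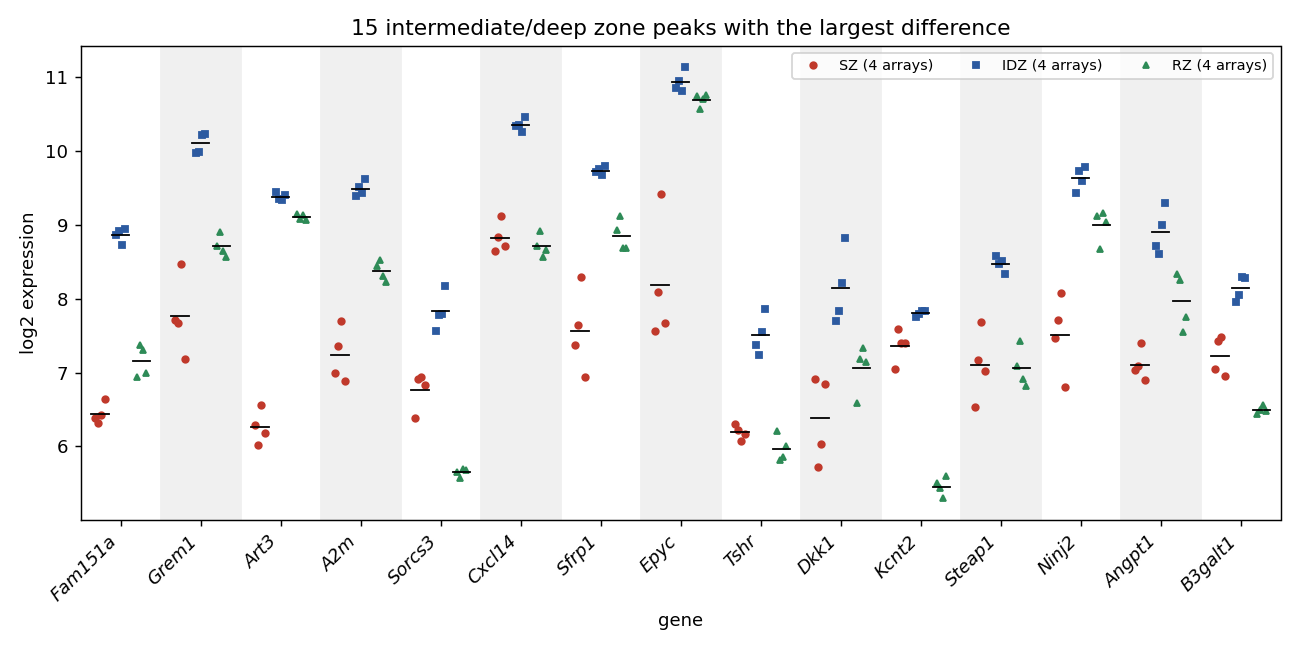
Normalized log2 expression on each array (circles, SZ; squares, IDZ; triangles, RZ; 4 arrays per zone, bars at zone means) of the 15 peaks with the largest difference between the IDZ mean and the mean of the SZ and RZ means. IDZ arrays lie above all others by the rule; Art3, Epyc and Ninj2 have RZ close below IDZ, and Sorcs3, Kcnt2 and B3galt1 have SZ above RZ.

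The 23 measured cartilage matrix genes held 4 peaks (17.4%) and 1 trough (4.35%), beside 1.97% and 3.62% of all genes. Matn1, matrilin 1, a filament-forming protein of cartilage, measured 11.18, 11.89, 11.85 and 11.62 in SZ, 12.99, 12.96, 12.91 and 12.96 in IDZ and 12.53, 12.59, 12.60 and 12.53 in RZ. IDZ exceeded SZ by 1.32 ± 0.13 and RZ by 0.39 ± 0.13. Epyc, epiphycan, a small leucine-rich proteoglycan, measured 7.56, 8.09, 9.42 and 7.68 in SZ, 10.86, 10.95, 10.82 and 11.13 in IDZ and 10.74, 10.58, 10.70 and 10.76 in RZ. The IDZ and RZ arrays lay within 0.6 of each other and far above SZ, among which SZ 3 was highest, and RZ exceeded SZ by 2.51 ± 0.29 (adjusted p = 9.2e-06). Ucma, a vitamin K-dependent protein of the upper growth plate, measured 12.67 to 13.11 in SZ, 13.31 to 13.40 in IDZ and 12.81 to 13.02 in RZ, with a difference of 0.43 ± 0.086. Scrg1, which is transcribed in cartilage, measured 11.70 to 12.37 in SZ, 12.50 to 12.60 in IDZ and 12.08 to 12.13 in RZ, with a difference of 0.48 ± 0.11. The trough was Prelp, a leucine-rich repeat proteoglycan that binds collagen and heparan sulfate. It measured 11.85, 11.93, 11.87 and 11.71 in SZ, 10.50, 10.64, 10.60 and 10.32 in IDZ and 12.33, 12.44, 12.09 and 12.09 in RZ. IDZ lay below SZ by 1.32 ± 0.11 and below RZ by 1.72 ± 0.11, and RZ was above SZ by 0.40 ± 0.11 (adjusted p = 0.013). Over the whole list 15 genes were higher and 3 lower in IDZ than in SZ, and 2 higher and 1 lower in IDZ than in RZ, at an adjusted p under 0.05. Of all genes, 9.56% were higher and 17% lower in IDZ than in SZ, and 3.22% higher and 5.58% lower in IDZ than in RZ.

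Enzymes that build or remodel the matrix added further members. The 33 measured matrix proteases and inhibitors held 3 peaks (9.09%) and no trough, beside 1.97% and 3.62% of all genes. The 40 measured genes of sulfation and glycosaminoglycan synthesis held 1 peak (2.5%) and 2 troughs (5.0%), near the shares among all genes. A2m, a broad-range inhibitor of proteases, was the fourth peak by size and measured 6.99, 7.37, 7.70 and 6.88 in SZ, 9.40, 9.52, 9.43 and 9.63 in IDZ and 8.44, 8.52, 8.31 and 8.23 in RZ. The zones were fully separated in the order IDZ, RZ and SZ, with IDZ 2-fold or more above each, by 2.26 ± 0.15 and 1.12 ± 0.15. Mmp16, a membrane-type metalloproteinase, measured 10.02 to 10.49 in SZ, 10.93 to 11.16 in IDZ and 10.65 to 10.82 in RZ, a difference of 0.59 ± 0.093. Adamts3, a procollagen N-proteinase, measured 10.36 to 10.59 in SZ, 10.96 to 11.32 in IDZ and 10.31 to 10.53 in RZ, a difference of 0.69 ± 0.084. P4ha3 and P4ha1, prolyl hydroxylase subunits that modify collagen, were peaks with differences of 0.92 ± 0.12 and 0.42 ± 0.091. They were the 2 peaks (5.41%) among 37 measured genes of endoplasmic reticulum folding and secretion. That list also held 3 troughs (8.11%), Pdia3, Dnajb9 and Sec61a1, with differences of 0.26, 0.50 and 0.26. B3gat3, which completes the linker of glycosaminoglycan chains, was a peak at 8.65 to 9.29 in SZ, 9.50 to 9.69 in IDZ and 9.32 to 9.40 in RZ. The sulfotransferases Chst3 and Chst15 were troughs, at 8.10 to 8.82 in SZ, 7.02 to 7.53 in IDZ and 7.61 to 8.03 in RZ and 7.16 to 7.65 in SZ, 6.21 to 6.54 in IDZ and 7.12 to 7.47 in RZ respectively. Enpp1, which makes pyrophosphate, was a trough at 11.31 to 11.80 in SZ, 10.96 to 11.10 in IDZ and 11.14 to 11.48 in RZ. It was the only trough (3.85%) among 26 measured genes of hypertrophy and mineralization, near the 3.62% of all genes. The only peak of that list (3.85%) was Foxa2, described below.

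Peaks among the 34 measured chondrocyte transcription factors numbered 4 (11.8%), with no trough, beside 1.97% and 3.62% of all genes. Sox5, a partner of Sox9, measured 8.01, 8.59, 8.58 and 7.99 in SZ, 9.34, 9.40, 9.31 and 9.39 in IDZ and 9.25, 9.16, 9.27 and 9.24 in RZ. IDZ was just above RZ, by 0.13 ± 0.13, and both were above SZ. Runx1 showed the opposite layout. It measured 9.76, 9.59, 9.47 and 9.67 in SZ, 9.80, 9.81, 9.98 and 9.85 in IDZ and 8.65, 9.07, 8.56 and 8.41 in RZ, with IDZ just above SZ, by 0.24 ± 0.13, and SZ above RZ by 0.95 ± 0.13 (adjusted p = 3.8e-05). Dlx5 resembled Runx1 and measured 7.79, 7.86, 8.00 and 7.69 in SZ, 8.10, 8.33, 8.35 and 8.53 in IDZ and 6.56, 6.75, 6.94 and 6.79 in RZ, with SZ above RZ by 1.07 ± 0.11 (adjusted p = 3.3e-06). Pitx1, a hindlimb factor, measured 9.10 to 9.36 in SZ, 9.55 to 9.68 in IDZ and 9.14 to 9.36 in RZ, and SZ and RZ overlapped (adjusted p = 0.98). Foxa2, a forkhead factor of chondrocytes, was a peak at 6.47 to 6.74 in SZ, 7.01 to 7.25 in IDZ and 6.35 to 6.81 in RZ. Hoxd3 was a peak at 6.12 to 6.36 in SZ, 6.44 to 6.73 in IDZ and 6.09 to 6.21 in RZ. Foxa2 and Hoxd3 are not among the 34 factors counted above. Hoxd3 was the only peak (4.76%) among 21 measured Hox genes, which held no trough. Every zone mean of Hoxd3 lay under the median of all values, 6.81, and its gap to the nearest array was 0.07. Grem1, Ucma and Foxa2 also made up the 3 peaks (21.4%) among 14 measured genes of the resting zone and chondroprogenitor list. The median difference over that list was 0.22.

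Ion channel subunits held 6 peaks and 2 troughs among 118 measured (5.08% and 1.69%), beside 1.97% and 3.62% of all genes. Kcnt2, a sodium-activated potassium channel, measured 7.05, 7.59, 7.40 and 7.40 in SZ, 7.75, 7.79, 7.83 and 7.84 in IDZ and 5.50, 5.43, 5.30 and 5.59 in RZ. SZ lay close under IDZ and far above RZ, by 1.90 ± 0.11 (adjusted p = 6e-09). Kcnd3, a voltage-gated potassium channel, measured 6.43, 6.54, 6.65 and 6.62 in SZ, 7.62, 7.63, 7.68 and 7.25 in IDZ and 6.79, 6.65, 6.66 and 6.55 in RZ, with IDZ 4 the lowest of the IDZ arrays and a difference of 0.94 ± 0.091. Kcnq5 measured 8.86 to 9.16 in SZ, 9.87 to 10.02 in IDZ and 9.14 to 9.42 in RZ, a difference of 0.77 ± 0.082. Kcnip1, a calcium-binding partner of Kcnd channels, was a trough at 6.86, 7.33, 6.71 and 6.71 in SZ, 6.18, 6.21, 5.72 and 6.07 in IDZ and 8.06, 7.91, 7.96 and 8.42 in RZ. RZ exceeded SZ by 1.18 ± 0.16 (adjusted p = 3.9e-05), and IDZ lay below both. Cacnb3, an auxiliary subunit of calcium channels, was a trough at 6.98 to 7.27 in SZ, 6.55 to 6.69 in IDZ and 7.11 to 7.16 in RZ, and the other peaks, Cacna1d, Kcnip4 and Kcne5, differed by 0.54, 0.68 and 0.29.

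Slc40a1, ferroportin, which exports iron from cells, was the trough with the largest difference. It measured 10.01, 10.24, 10.16 and 10.06 in SZ, 8.20, 8.39, 8.09 and 8.60 in IDZ and 10.55, 10.53, 10.52 and 10.91 in RZ. All IDZ arrays were below 8.7 and all others above 10.0, with RZ 4 the highest. IDZ lay 2.06 ± 0.11 below the mean of the other zones, 4.16-fold, and RZ exceeded SZ by 0.51 ± 0.12 (adjusted p = 0.0066). The 8 measured erythroid markers varied between arrays within every zone, with means of 7.32 to 9.17 in SZ, 7.54 to 8.63 in IDZ and 7.51 to 9.43 in RZ. Macrophages also express Slc40a1, and the mean of 18 macrophage markers was 7.79 to 8.58 in SZ, 6.50 to 6.59 in IDZ and 6.24 to 6.89 in RZ; none of these 26 markers was a trough, and their part in the result was not tested. Steap1, of a family of membrane metalloreductases, was a peak at 6.53, 7.17, 7.69 and 7.02 in SZ, 8.58, 8.47, 8.51 and 8.33 in IDZ and 7.09, 7.43, 6.91 and 6.82 in RZ, with SZ and RZ overlapping (adjusted p = 0.94) and a difference of 1.39 ± 0.17. Its neighbor on the chromosome, Steap2, was also a peak, at 7.70 to 8.50 in SZ, 8.66 to 9.0 in IDZ and 7.70 to 8.08 in RZ; this gene too was picked after its values were seen.

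Of 305 measured solute carriers, 12 were troughs (3.93%) and 5 were peaks (1.64%), both close to the shares among all genes. Slc2a12, a glucose carrier, was a trough at 7.34 to 7.77 in SZ, 6.77 to 6.98 in IDZ and 7.66 to 7.94 in RZ, whereas its relative Slc2a10 was a peak at 8.44 to 9.05 in SZ, 9.10 to 9.38 in IDZ and 8.86 to 9.09 in RZ. Car5b, a mitochondrial carbonic anhydrase, was the third trough by size and measured 8.40, 8.65, 8.31 and 7.93 in SZ, 6.42, 6.80, 6.36 and 6.73 in IDZ and 8.18, 8.18, 8.12 and 8.41 in RZ. SZ and RZ overlapped (adjusted p = 0.75), and IDZ lay 1.69 ± 0.13 below their mean, 3.24-fold. It was the only member among 14 measured carbonic anhydrases, so 7.14% of them were troughs, beside 3.62% of all genes.

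The glycolysis and hypoxia list held 4 peaks among 35 measured genes (11.4%) and no trough, beside 1.97% and 3.62% of all genes. Higd1a, a mitochondrial protein induced by low oxygen, measured 7.76, 7.30, 7.42 and 6.71 in SZ, 8.40, 8.02, 8.05 and 7.95 in IDZ and 7.83, 7.80, 7.75 and 7.82 in RZ, a difference of 0.56 ± 0.15. Pfkfb4, which makes an activator of glycolysis, measured 7.33 to 7.82 in SZ, 8.03 to 8.23 in IDZ and 7.92 to 8.01 in RZ, and P4ha1, named above, and Ankrd37 were the others. Of this list, 21 genes were higher in IDZ than in SZ, beside 9.56% of all genes, and 1 was higher in IDZ than in RZ, beside 3.22%. The 64 measured cytosolic ribosomal proteins held 4 peaks (6.25%; Rps27, Rps24, Rpl37a and Rpl7a) and no trough. Of the 64, 28 were higher in IDZ than in SZ and 2 higher in IDZ than in RZ. Rps24 measured 9.78 to 10.26 in SZ, 10.64 to 10.98 in IDZ and 10.25 to 10.60 in RZ and Rpl37a 11.63 to 11.85 in SZ, 12.18 to 12.23 in IDZ and 11.95 to 12.13 in RZ. Ribosomal protein genes have many near-identical copies in the genome, so these 4 are uncertain. None of 20 measured cholesterol and fatty acid synthesis genes was a member, nor was any of 25 immediate early genes. At the shares among all genes few members would fall in lists of this size, so these absences say little.

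The 47 measured genes of axon guidance and neuronal adhesion held 3 troughs (6.38%) and 1 peak (2.13%), and 17 integrins and cadherins held 2 troughs and 1 peak, beside 3.62% and 1.97% of all genes. Ntn1, netrin 1, a secreted axon guidance cue, measured 8.74, 8.74, 8.48 and 8.15 in SZ, 7.61, 7.89, 7.60 and 7.79 in IDZ and 10.32, 10.34, 10.23 and 10.64 in RZ. RZ was far above SZ, by 1.85 ± 0.14 (adjusted p = 7.7e-08), and IDZ lay 1.73 ± 0.12 below the mean of both zones and below every SZ array. Plxnd1, a semaphorin receptor, measured 9.73 to 10.36 in SZ, 8.69 to 8.99 in IDZ and 9.35 to 9.67 in RZ, a trough with a difference of 1.00 ± 0.11, and Sema3d, a secreted semaphorin, was a trough with a difference of 0.54 ± 0.087. Efna5, an ephrin, was the one peak of this list, at 8.05 to 8.74 in SZ, 9.15 to 9.40 in IDZ and 8.71 to 8.92 in RZ. Among the integrins and cadherins, Itga10, a collagen-binding integrin of chondrocytes, was a peak at 8.79 to 9.20 in SZ, 9.47 to 9.81 in IDZ and 8.96 to 9.46 in RZ. Itga11, a collagen-binding integrin of fibroblasts, was a trough at 8.65 to 9.40 in SZ, 8.00 to 8.33 in IDZ and 8.44 to 8.60 in RZ, as was Cdh2, N-cadherin, at 6.55 to 7.19 in SZ, 6.25 to 6.34 in IDZ and 6.76 to 7.24 in RZ.

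**Figure D4:**
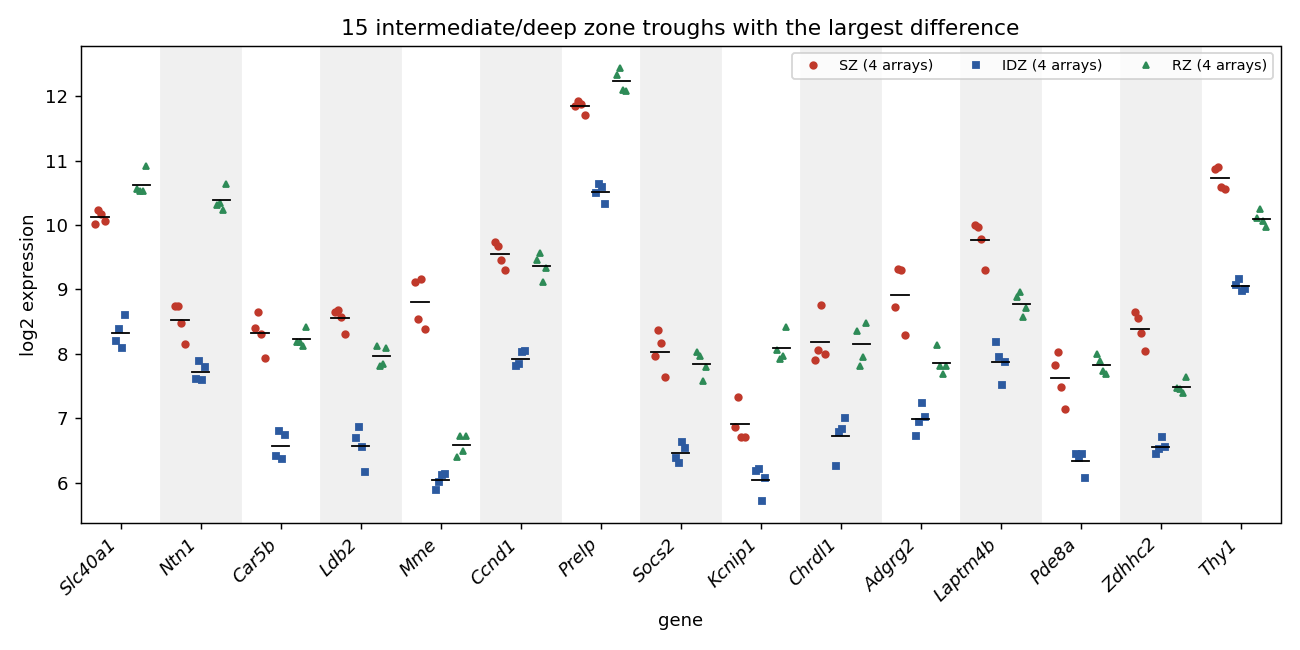
Normalized log2 expression on each array (circles, SZ; squares, IDZ; triangles, RZ; 4 arrays per zone, bars at zone means) of the 15 troughs with the largest difference between the IDZ mean and the mean of the SZ and RZ means. IDZ arrays lie below all others by the rule; Ntn1 and Kcnip1 have RZ above SZ, Mme and Laptm4b have SZ above RZ, and Car5b, Ccnd1 and Chrdl1 have overlapping SZ and RZ arrays.

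The surface and signaling troughs of large size included several that were also zonal between SZ and RZ. Mme, neprilysin, a membrane peptidase, measured 9.11, 8.54, 9.16 and 8.39 in SZ, 5.89, 6.01, 6.13 and 6.14 in IDZ and 6.40, 6.73, 6.49 and 6.72 in RZ. SZ exceeded RZ by 2.21 ± 0.16 (adjusted p = 5.6e-08), and IDZ lay 0.54 ± 0.16 below RZ. Thy1, a surface protein of fibroblasts and stromal cells, measured 10.86, 10.90, 10.59 and 10.56 in SZ, 9.07, 9.17, 8.97 and 9.01 in IDZ and 10.11, 10.24, 10.06 and 9.97 in RZ, with the order SZ, RZ and IDZ and no overlap. Laptm4b, a lysosomal membrane protein, measured 9.31 to 10.01 in SZ, 7.51 to 8.18 in IDZ and 8.57 to 8.96 in RZ, in the same order. Pde8a, a cAMP phosphodiesterase, measured 7.83, 8.03, 7.49 and 7.15 in SZ, 6.45, 6.38, 6.45 and 6.08 in IDZ and 8.00, 7.89, 7.74 and 7.68 in RZ, with SZ and RZ overlapping (adjusted p = 0.48) and a difference of 1.39 ± 0.14. Ldb2, a cofactor of LIM-domain factors, measured 8.65, 8.68, 8.57 and 8.31 in SZ, 6.69, 6.87, 6.56 and 6.16 in IDZ and 8.13, 7.80, 7.84 and 8.09 in RZ, a difference of 1.69 ± 0.12. Zdhhc2, a palmitoyltransferase, measured 8.04 to 8.65 in SZ, 6.45 to 6.71 in IDZ and 7.40 to 7.65 in RZ, and Adgrg2, an adhesion G protein-coupled receptor, 8.30 to 9.32 in SZ, 6.73 to 7.24 in IDZ and 7.70 to 8.13 in RZ.

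Peaks of large size with other or less known roles completed the upper end. Fam151a had the largest difference of all peaks and measured 6.38, 6.31, 6.42 and 6.64 in SZ, 8.86, 8.92, 8.73 and 8.94 in IDZ and 6.93, 7.37, 7.31 and 7.00 in RZ. IDZ exceeded SZ by 2.43 ± 0.11 and RZ by 1.71 ± 0.11, 4.2-fold above their mean. Art3, of the ADP-ribosyltransferase family, measured 6.29, 6.02, 6.55 and 6.18 in SZ, 9.44, 9.35, 9.34 and 9.41 in IDZ and 9.14, 9.08, 9.13 and 9.06 in RZ. IDZ and RZ were within 0.4 on every array and RZ exceeded SZ by 2.84 ± 0.10 (adjusted p = 6.4e-11), so the difference of IDZ from RZ was 0.28 ± 0.10. Sorcs3, a sorting receptor, measured 6.39, 6.92, 6.94 and 6.83 in SZ, 7.57, 7.77, 7.80 and 8.17 in IDZ and 5.65, 5.58, 5.69 and 5.68 in RZ, with SZ above RZ by 1.12 ± 0.14 (adjusted p = 1.8e-05). Ninj2, an adhesion protein, measured 6.80 to 8.08 in SZ, 9.43 to 9.78 in IDZ and 8.68 to 9.16 in RZ, and B3galt1, a galactosyltransferase, 6.95 to 7.48 in SZ, 7.96 to 8.29 in IDZ and 6.43 to 6.56 in RZ.

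The members whose SZ and RZ levels differed most showed that the distance of IDZ from one zone could be much larger than from the other. Besides those described, the troughs with SZ far above RZ were Coro1c, which binds actin, at 9.92 to 10.63 in SZ, 8.25 to 8.48 in IDZ and 8.53 to 8.81 in RZ, Dock11 at 7.17 to 8.13 in SZ, 5.79 to 5.95 in IDZ and 6.09 to 6.18 in RZ, Frmd6 at 8.63 to 9.60 in SZ, 7.39 to 7.70 in IDZ and 7.71 to 7.92 in RZ and Aldh3a2, a fatty aldehyde dehydrogenase, at 8.23 to 8.68 in SZ, 6.71 to 7.11 in IDZ and 7.16 to 7.28 in RZ. In Dock11 the IDZ mean lay 1.97 ± 0.17 below SZ and 0.23 ± 0.17 below RZ. The troughs with RZ far above SZ included Apbb1ip and Pawr. Apbb1ip measured 5.51 to 6.21 in SZ, 4.95 to 5.29 in IDZ and 6.02 to 6.68 in RZ. Its zone means all lay under the median of all values, 6.81. Pawr measured 6.27 to 6.69 in SZ, 5.83 to 6.24 in IDZ and 7.02 to 7.36 in RZ. Such genes pass the rule because their arrays did not overlap, although IDZ and one other zone were close.

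Markers of other cell types were examined because SZ is cut at the joint surface. Among all genes, 17% were lower in IDZ than in SZ, 5.58% were lower in IDZ than in RZ and 3.22% were higher. Of 14 endothelial markers, 13 were lower in IDZ than in SZ and none passed the test between IDZ and RZ. Their array means were 8.47 to 9.0 in SZ, 6.59 to 6.99 in IDZ and 6.41 to 6.66 in RZ, and none was a peak or trough. Of 18 macrophage and myeloid markers, 16 were lower in IDZ than in SZ, none passed the test between IDZ and RZ, and none was a member. Few genes of any kind passed between IDZ and RZ, so finding none in lists of this size says little. No osteoclast, osteoblast, adipocyte, nerve, lymphoid or mast cell marker was a member either. Among 12 pericyte and smooth muscle markers, Tagln and Des were troughs (16.7%, beside 3.62% of all genes). Tagln, which binds actin, measured 8.51 to 9.44 in SZ, 7.18 to 7.55 in IDZ and 7.65 to 7.84 in RZ, and Des, desmin, 8.20 to 8.91 in SZ, 7.13 to 7.47 in IDZ and 7.99 to 8.36 in RZ. The array means of these 12 markers were 8.47 to 8.83 in SZ, 7.08 to 7.34 in IDZ and 7.05 to 7.21 in RZ. Of 27 fibrous connective tissue genes, 25 were lower in IDZ than in SZ, and Thy1 and Fbln1 were troughs (7.41%). Fbln1 measured 8.55 to 9.39 in SZ, 8.01 to 8.16 in IDZ and 8.19 to 8.45 in RZ. Array means of the fibrous list were 10.79 to 11.19 in SZ, 9.10 to 9.38 in IDZ and 8.49 to 8.70 in RZ. Tnnt3, a troponin of fast muscle, was a peak at 7.78 to 8.25 in SZ, 9.43 to 9.61 in IDZ and 8.75 to 9.12 in RZ, while the mean of the 14 striated muscle markers was 6.42 to 7.11 in SZ, 6.69 to 6.85 in IDZ and 6.72 to 6.96 in RZ. The part of other cell types in these troughs and peaks was not tested.

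**Figure D5:**
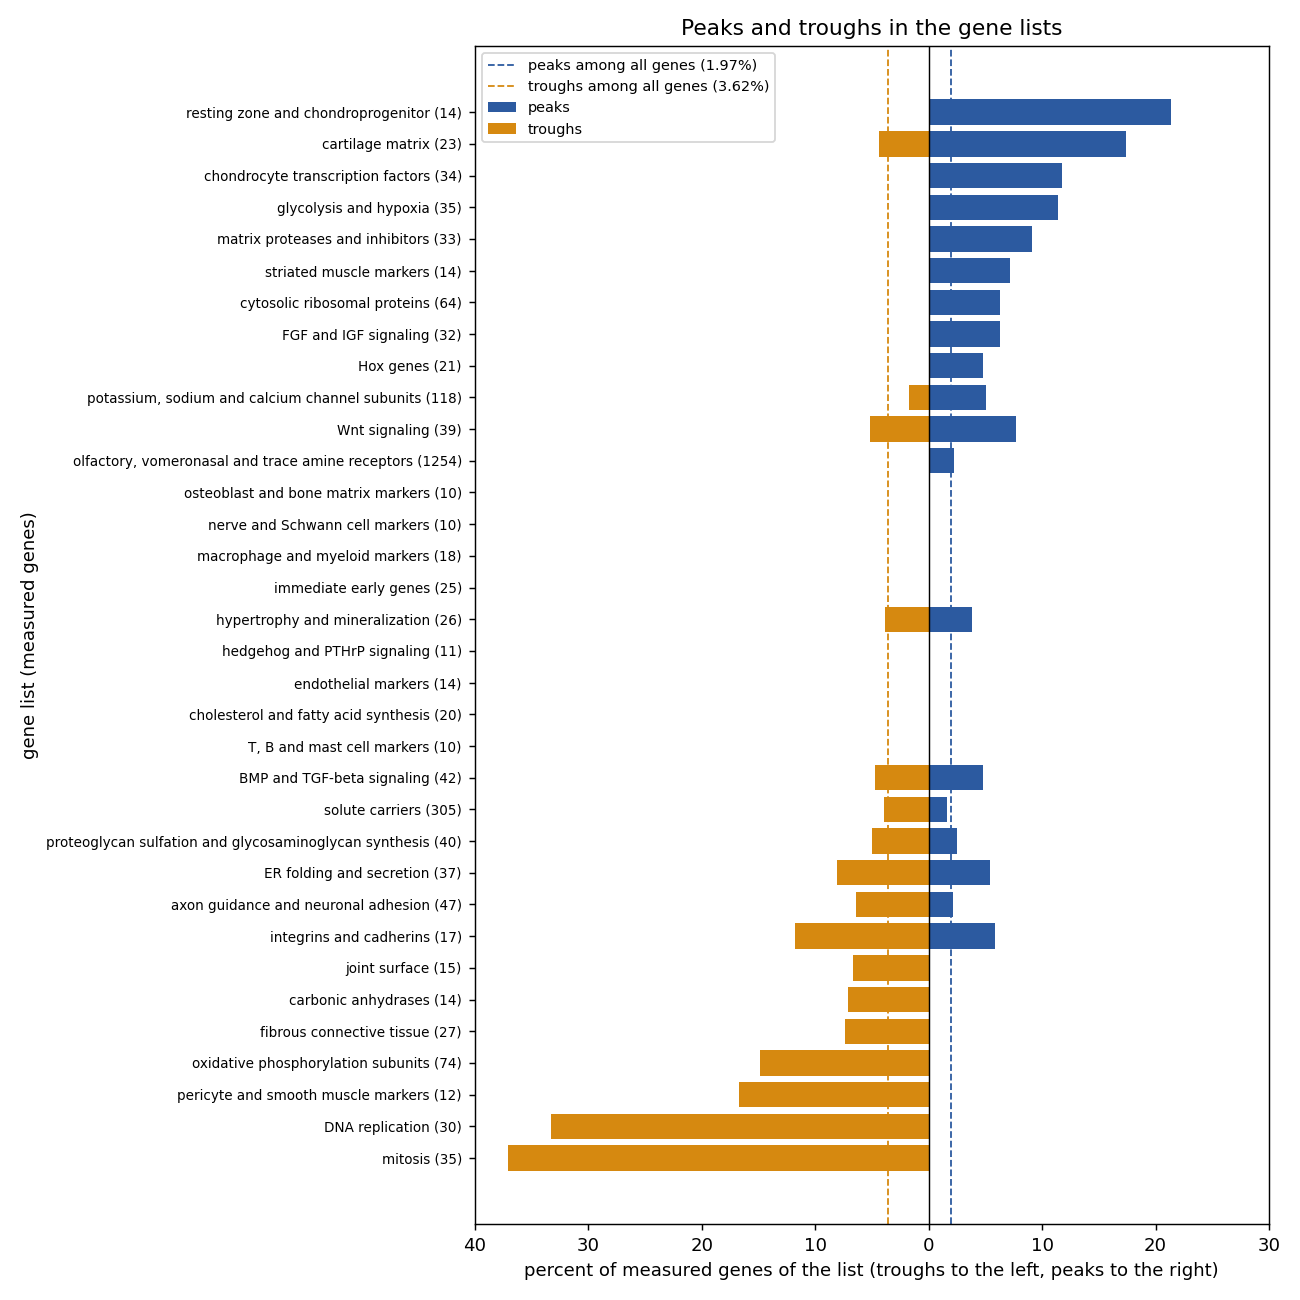
Share of the measured genes of each list that were peaks (blue, to the right) or troughs (orange, to the left), in percent, for lists with at least 10 measured genes (number in parentheses); dashed lines mark the shares among all genes, 1.97% for peaks and 3.62% for troughs. Mitosis and DNA replication reach the furthest left (37.1% and 33.3%), and the resting zone and cartilage matrix lists the furthest right (21.4% and 17.4%), the latter resting on 3 and 4 genes.

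Peaks and troughs differed in level. Genes whose highest zone mean was under the median of all values, 6.81, numbered 5408, and they held 61 peaks (1.13%) and 14 troughs (0.259%). The 8892 brighter genes held 220 peaks (2.47%) and 504 troughs (5.67%). Olfactory, vomeronasal and trace amine receptors, which cartilage is not known to use, gave 28 peaks among 1254 measured genes (2.23%) and no trough. Their median level was 4.84 to 4.96 on the IDZ arrays, 4.72 to 4.82 on the RZ arrays and 4.66 to 4.97 on the SZ arrays. Or1e25, the one with the largest difference, measured 4.70 to 5.27 in SZ, 5.31 to 5.71 in IDZ and 4.89 to 5.11 in RZ, a difference of 0.49 ± 0.11. The number of these receptor peaks was 18 when each array was centered on its own median, 7 after quantile normalization of the cluster values and 47 to 80 when SZ 3, SZ 4, IDZ 1, IDZ 2 or IDZ 4 was left out. The count of peaks at this level therefore moved with the scaling and with single arrays.

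At the limit of the rule the members shaded into other genes. The peaks just inside were Abcb9, Ugt2a3 and Aldoart2, whose lowest IDZ array exceeded the nearest other array by 0.0002, 0.0016 and 0.001. Just outside were Bpifa1, a tie, and Amy1 and Lzts2, each with an overlap of 0.0001. The troughs just inside were Arcn1, Wars1 and Mdc1, with gaps of 0.0011, 0.0005 and 0.001, and those just outside were Psmc3, Cox8a and Bicd2, with overlaps of 0.0002, 0.0003 and 0.0004. In contrast, the gap was 1.41 for Slc40a1, 1.36 for Fam151a, 1.14 for Cxcl14, 1.13 for Car5b and 1.07 for Grem1. A gap of at least 0.25 was kept by 57 peaks and 96 troughs. Members with more than 1 probe cluster could be checked within the same arrays: of 80 further clusters belonging to 46 members, 78 had a difference of the same sign and 52 met the rule themselves. Of these clusters, 31 belonged to Rpl7a, Hspa8, Hnrnpa3 and Actg1, each with at least 5 further clusters and with near-identical copies in the genome, and 28 of the 31 met the rule. Of the other 49 clusters, belonging to 42 members, 47 had the same sign and 24 met the rule.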

How the data were processed

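A total of 12 arrays (Rat Gene 1.0 ST) of SZ, IDZ and RZ, 4 per zone, were analyzed. The deposited values are log2 expression per transcript cluster, which the authors made from scanner intensities by robust multi-array averaging with quantile normalization in Partek (version 6.6, per the submitters' processing notes). Depth does not apply to arrays, and 4 arrays per zone limit the precision. Clusters were named through the platform annotation: of 27342 clusters, 15068 had 1 gene symbol, 323 several and 11951 none. The brightest cluster stood for each of 14300 symbols, of which 495 had more than 1 cluster. Members were found by the rule given in the report, ties counting as overlap. SZ was compared with RZ by limma (version 3.58.1, R 4.3.3) on all 12 arrays with 1 mean per zone and Benjamini-Hochberg adjustment over all clusters; standard errors come from this fit. P-values set the difference of means against 1 spread between samples, shared by all zones, although SZ samples held 1 animal and the others 2. Standard errors of IDZ minus RZ therefore carry the scatter of SZ. In Sox5, for example, the SD was 0.34 in SZ, 0.04 in IDZ and 0.05 in RZ. Zones from the same animals were treated as independent, apart from the block alternatives. Named genes were the 15 largest peaks and 15 largest troughs by the difference of IDZ from the mean of the other zones, up to 3 of each direction per list (37 lists), the 3 nearest the limit on each side, the 5 with the largest SZ to RZ difference in each direction, and Prg4 and Col10a1; others are marked or were named to complete a list. The genes, lists and rule were chosen with earlier results of these data known. Promoter sequences came from RefSeq (GRCr8), matched by symbol for 11801 of 14300 genes.

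IDZ and RZ samples of one number came from the same animals per the labels, and their deviations from zone means correlated at 0.06, 0.00, 0.11 and 0.29. Alternatives were median centering, repeated quantile normalization, removal of dim genes, a minimum gap, limma against both zones, every cluster by itself, the animal pair as a block, other variance models, SZ and RZ arrays alone, and each array left out. Scripts were tested on simulated data. Tools were Python 3.11.15, pandas 2.3.3, numpy 2.4.6 and matplotlib 3.10.9.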

Additional observations from a re-analysis of the deposited data

Results flagged for a closer look

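In 321 groups of 4 arrays (named genes by zone), 19 arrays lay far from the other 3, measured as the gap to the nearest array over the range of the group; chance gives about 1 in 20 groups. Of these, 7 were on IDZ 4, namely Prg4 (8.86) and Kcnd3 (7.25), which were low, Sec61a1 (11.20), low, and Frmd6 (7.70), Hoxd3 (6.73), Scrg1 (12.60) and Sdhc (10.38), which were high. SZ 4 was low in B3gat3 (8.65), Dock11 (7.17), Pcna (9.16) and Wars1 (7.95). IDZ 1 was low in B3gat3 (9.50) and Rpl37a (12.18), IDZ 2 was low in Slc25a5 (9.34), and IDZ 3 was high in Or7g23 (4.75). RZ 2 was high in Rrm2 (9.67), RZ 3 was low in Apbb1ip (6.02), RZ 4 was high in Slc40a1 (10.91), and SZ 3 was high in Chrdl1 (8.75).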

How the results depend on the processing

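With each array left out in turn there were 291 to 465 peaks and 522 to 1190 troughs. Of these, 8 to 14 peaks and 12 to 15 troughs were 2-fold from both zones. There were 47 to 84 peaks higher in RZ, 15 to 25 peaks higher in SZ, 124 to 324 troughs higher in SZ and 12 to 48 troughs higher in RZ. DNA replication and mitosis troughs numbered 23 to 49. The upper ends came without SZ 4, apart from 2 counts. The most 2-fold peaks came without SZ 3 and also without IDZ 2, and the most peaks higher in SZ without SZ 3. A minimum gap of 0.25 left 57 peaks and 96 troughs. A limma test against both zones gave 129 peaks and 323 troughs, of which 118 and 250 were members by the rule. Clusters taken singly, named or not, gave 685 peaks and 724 troughs of 27342. Median centering gave 196 peaks and 436 troughs, with 10 troughs higher in RZ. Quantile normalization again gave 370 and 590, with 35 peaks higher in SZ, 116 peaks higher in RZ and 29 troughs higher in RZ. SZ and RZ arrays fitted alone gave 11 troughs higher in RZ.

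With the animal pair as a fixed replicate block, 14 peaks were higher in SZ and 43 in RZ, and 103 troughs were higher in SZ and 8 in RZ. With the pair as a random block the counts were 19, 60, 164 and 16, with a consensus correlation of -0.14. The same-numbered IDZ and RZ samples pair by animal, whereas SZ samples pair with them only in part. The cause of the changed counts was not tested.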

Other observations

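Further groups were noticed among the troughs after the values were seen, and they are given as counts without a test. Actb and Actg1, the cytoplasmic actins that often serve as reference genes, were both troughs and measured 13.41 to 13.48 in SZ, 12.75 to 12.81 in IDZ and 12.84 to 13.07 in RZ and 13.01 to 13.30 in SZ, 12.51 to 12.61 in IDZ and 12.85 to 12.91 in RZ. Of 6 measured 14-3-3 proteins, which bind phosphorylated partners, 5 were troughs, with differences of 0.28 to 0.56, and of 26 measured histone genes 12 were troughs, with differences of 0.50 to 0.96. Many histone genes are near-identical copies, so single ones are uncertain. Proteasome subunits and activators gave 8 troughs of 45, V-ATPase subunits 4 of 20 and Rab GTPases 6 of 53, and none of these 5 families held a peak. Among all genes 3.62% were troughs, and among the brighter genes 5.67%. The 24 measured CDKs and CDK inhibitors held 6 troughs and 1 peak, Cdk18.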
